A study of Mus musculus with 8 samples.

Results

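Transcripts of microglia and macrophages, 10 in all, were followed across 4 groups of cultured mouse astrocyte libraries: C1qa, C1qb, C1qc, Tyrobp, Trem2, Csf1r, Cx3cr1, P2ry12, Lyz2 and Ctss. They were taken by symbol from a count table of 13607 genes, with earlier results of these data known, and all 10 were found and tested. PolyA RNA was sequenced from 8 libraries, with replicates A and B in each of 4 groups. All cells came from C57BL/6J mice carrying floxed Yap and Taz alleles (Yapf/f;Tazf/f, genes Yap1 and Wwtr1). All grew in medium with 20 ng/ml EGF and 20 ng/ml bFGF. Control astrocytes were untransformed, untreated and kept without doxycycline, at a time that the labels do not give. The HER2CA day 15 libraries came from astrocytes given lentiviruses for a doxycycline-inducible HER2 construct named HER2CA, rtTA and CreERT2, after 15 days with doxycycline (1 µg/µL as the labels write it). Their labels name DMSO in one place and no treatment in another. The 4OH-TAM-labelled libraries received the same viruses and doxycycline for 15 days, with 1 µM 4OH-TAM, which activates CreERT2. Gliomaspheres, also labelled HER2CA, were passage 1 spheres grown in suspension in the same doxycycline medium, with DMSO. They were harvested 3 weeks after the experiment began. Which promoters drive the constructs is not given here. Nothing states whether replicates A and B were separate cultures, so the p-values cover the spread between libraries alone, which may be technical.

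The knockout label was checked first. Yap1 stood at 107 and 103 CPM (counts scaled to library size) in the 4OH-TAM-labelled libraries and at 101 and 103 CPM in HER2CA day 15, an edgeR log2 fold change of 0.04 (SE 0.0682, adjusted p = 0.569). Wwtr1 fell from 194 and 210.3 to 123 and 122 CPM (log2 fold change −0.73, SE 0.0687, adjusted p = 1.25e-07). Gene counts thus showed no loss of Yap1 under that label, and which exons the floxed alleles lose is not stated, so groups are named here by their labels. Depth ran from 15517708 to 28231426 counts per library. The ribosomal RNA transcript Rn45s took 36.1% of the counts of gliomaspheres B and 0.984% to 2.92% of every other library, and the pair of gliomasphere libraries differed most (chi-square per degree of freedom 733, against 4.05 to 12.6 in the other groups). None of the listed markers of T and NK cells (0 of 8), B cells (0 of 4) and neutrophils (0 of 6) was measured, and these cells were not analysed here. Removing Rn45s and Lars2 changed no call on the 10 transcripts.

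Microglia are the resident macrophages of the brain, and dissociated brain tissue from which astrocytes are grown commonly carries some of them along. They live on signals through the receptor CSF1R, whose ligands are CSF1 and IL34, and read their surroundings through the fractalkine receptor CX3CR1 and the purine receptor P2RY12, both known as markers of resting microglia. TREM2 senses lipids and cell debris through the adaptor TYROBP, and C1q opens the classical complement cascade. Lysozyme and cathepsin S act in phagocytosis and in the breakdown of proteins in lysosomes.

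Promoter sequence was read for the 7 of 10 genes with an entry in the RefSeq promoter table (GRCm38.p6), over the 250 bases before the start site. Many myeloid genes are controlled by the factor PU.1 (gene Spi1), so the 6-base core GAGGAA was searched on both strands. It lay in 4 of the 7 windows (C1qb, C1qc, Trem2 and Ctss) and in 7639 of 32851 windows over all genes (23.3%). Windows of Cx3cr1, P2ry12 and Lyz2 did not hold these letters. The 3 windows below hold the core and overlap no annotated exon, and are shown so that the motif can be seen in its place. Capitals mark the core, which reads TTCCTC where it lies on the opposite strand (Trem2). The C1qb window is chr4:136886201-136886450 on the minus strand, with the core starting 30 bases before the start site. That of Trem2 is chr17:48346151-48346400 on the plus strand (40 bases before), and that of Ctss is chr3:95526536-95526785 on the plus strand (164 bases before).
C1qb: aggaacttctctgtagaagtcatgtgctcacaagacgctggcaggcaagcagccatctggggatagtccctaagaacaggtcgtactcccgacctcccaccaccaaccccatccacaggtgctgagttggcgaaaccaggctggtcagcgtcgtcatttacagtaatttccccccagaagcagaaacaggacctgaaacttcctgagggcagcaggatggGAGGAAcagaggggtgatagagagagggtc
Trem2: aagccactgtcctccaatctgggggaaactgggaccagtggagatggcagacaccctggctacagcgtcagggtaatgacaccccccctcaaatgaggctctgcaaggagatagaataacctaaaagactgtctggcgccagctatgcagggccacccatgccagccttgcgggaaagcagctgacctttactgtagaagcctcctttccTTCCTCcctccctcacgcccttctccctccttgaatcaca
Ctss: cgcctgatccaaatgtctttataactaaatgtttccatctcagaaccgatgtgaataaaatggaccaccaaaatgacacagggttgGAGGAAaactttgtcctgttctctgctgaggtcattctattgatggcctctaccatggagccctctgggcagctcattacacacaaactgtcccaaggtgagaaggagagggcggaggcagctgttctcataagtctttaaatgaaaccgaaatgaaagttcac
A match to these letters is a description of the sequence, and binding was not measured. Spi1 itself, picked out after its values were seen, stood at 0.691 and 0.865 CPM in controls, 0.550 and 0.552 in HER2CA day 15, 3.75 and 4.63 in the 4OH-TAM-labelled libraries and 0.545 and 0.506 in gliomaspheres. It rose between the day 15 groups (log2 fold change 2.91, SE 0.248, edgeR adjusted p = 3.81e-08).

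All 10 transcripts rose in the 4OH-TAM-labelled libraries compared with HER2CA day 15, from 2.28-fold for Cx3cr1 to 17.9-fold for Lyz2. Their summed level went from 86.7 and 89.2 CPM to 1047 and 1016 CPM, with 123 and 145 CPM in controls and 110.0 and 102 CPM in gliomaspheres. The median log2 fold change of the 10 was 2.75, beside 0.01 over all genes. The edgeR quasi-likelihood test called 40.8% of all 13607 genes higher and 39.7% lower in this comparison (Benjamini-Hochberg adjusted p under 0.05), so the day 15 groups differed in most genes. Every alternative that tested a transcript kept its call, and a filter at 5 CPM removed P2ry12. In bulk RNA a change in the number of cells of a type cannot be told apart from a change in RNA per cell.

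**Figure D1:**
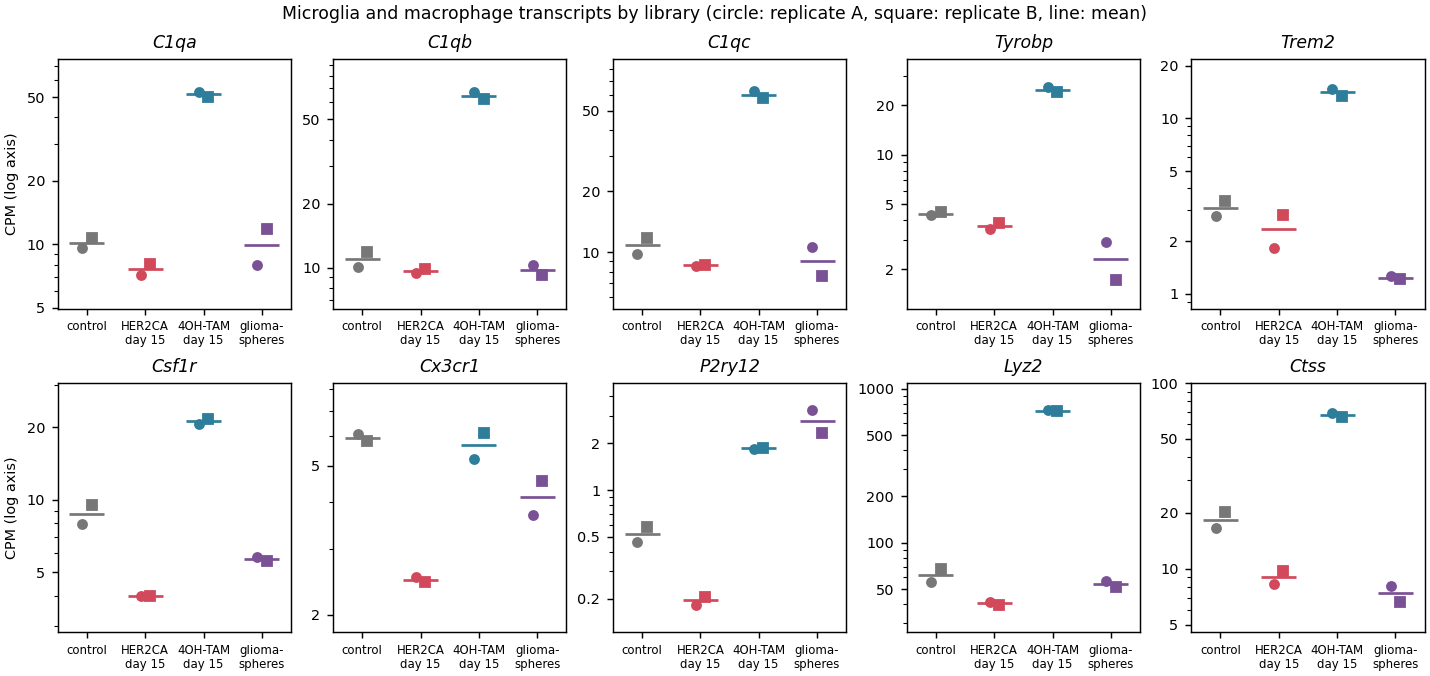
Level of each transcript in each of the 8 libraries, in CPM on a log axis (circle: replicate A, square: replicate B, line: mean of the pair; each panel has its own range). In 8 panels the 4OH-TAM-labelled libraries stand above every other library; Cx3cr1 is close to its control level there, and P2ry12 is highest in gliomaspheres.

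C1qa, C1qb and C1qc encode the chains of C1q and sit side by side on chromosome 4 (136895917 to 136898803, 136880129 to 136886187 and 136889804 to 136893065, minus strand, GRCm38). C1qb was measured at 10.1 and 11.8 CPM in controls, 9.44 and 9.80 in HER2CA day 15, 66.8 and 62.1 in the 4OH-TAM-labelled libraries and 10.3 and 9.21 in gliomaspheres. C1qa had 9.56 and 10.8, 7.10 and 8.07, 52.7 and 50.2, and 8.00 and 11.8 CPM in the same order. C1qc had 9.83 and 11.7, 8.57 and 8.66, 62.3 and 57.8, and 10.6 and 7.59 CPM. The 4OH-TAM-labelled libraries were high for each chain, and the other 6 libraries lay together at a low level. Against HER2CA day 15 the log2 fold changes were 2.74 for C1qb (SE 0.103), 2.75 for C1qa (SE 0.134) and 2.80 for C1qc (SE 0.123), with edgeR adjusted p of 7.42e-11 or less.

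Tyrobp (chromosome 7, 30413760 to 30417585, plus strand) encodes the adaptor that carries the signal of TREM2 and other myeloid receptors into the cell. It was measured at 4.26 and 4.45 CPM in controls, 3.53 and 3.83 in HER2CA day 15, 25.6 and 24.1 in the 4OH-TAM-labelled libraries and 2.93 and 1.72 in gliomaspheres. Trem2 (chromosome 17, 48346401 to 48354147, plus strand) had 2.76 and 3.38, 1.83 and 2.83, 14.8 and 13.4, and 1.26 and 1.21 CPM in the same order. For this receptor and its adaptor the gliomaspheres were the lowest group and the 4OH-TAM-labelled libraries the highest. The log2 fold change between the day 15 groups was 2.75 for Tyrobp (SE 0.15, edgeR adjusted p = 2.58e-10) and 2.56 for Trem2 (SE 0.178, adjusted p = 4.12e-09).

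Csf1r (chromosome 18, 61100598 to 61132149, plus strand) encodes the survival receptor of microglia. Its level was 7.95 and 9.47 CPM in controls, 3.99 and 4.00 in HER2CA day 15, 20.6 and 21.7 in the 4OH-TAM-labelled libraries and 5.78 and 5.56 in gliomaspheres. No library of one group overlapped another group. It rose 5.29-fold between the day 15 groups (log2 fold change 2.40, SE 0.133, edgeR adjusted p = 3.22e-10). Exons of Hmgxb3 on the opposite strand cover 15.1% of the exon bases of Csf1r, and no source used here gives the strand setting of the counting. Hmgxb3 itself was lower in that comparison (log2 fold change −0.74, SE 0.0881, adjusted p = 1.69e-06).

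Cx3cr1 (chromosome 9, 119901616 to 120069879, minus strand) encodes the fractalkine receptor. It stood at 6.07 and 5.81 CPM in controls, 2.52 and 2.45 in HER2CA day 15, 5.21 and 6.12 in the 4OH-TAM-labelled libraries and 3.69 and 4.55 in gliomaspheres. It was low in HER2CA day 15, and the 4OH-TAM-labelled libraries overlapped the controls. It rose 2.28-fold between the day 15 groups (log2 fold change 1.19, SE 0.171, edgeR adjusted p = 1.27e-05), the smallest rise of the 10.

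P2ry12 (chromosome 3, 59216272 to 59262871, minus strand) encodes the purine receptor. It had 12 and 14 counts in controls, 4 and 6 in HER2CA day 15, 48 and 49 in the 4OH-TAM-labelled libraries and 78 and 23 in gliomaspheres. Scaled to depth, these were 0.461 and 0.577, 0.183 and 0.207, 1.84 and 1.87, and 3.27 and 2.33 CPM. Gliomaspheres were thus the highest group for P2ry12 and for none of the other 9. It rose 9.21-fold between the day 15 groups (log2 fold change 3.20, SE 0.362, edgeR adjusted p = 9.43e-07), from a base of 10 counts.

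Lyz2 (chromosome 10, 117277331 to 117282321, minus strand) encodes the macrophage lysozyme. It was measured at 55.7 and 67.2 CPM in controls, 41.2 and 39.5 in HER2CA day 15, 729 and 713 in the 4OH-TAM-labelled libraries and 56.2 and 51.5 in gliomaspheres. Its rise between the day 15 groups was the largest of the 10 (log2 fold change 4.16, SE 0.0957, edgeR adjusted p = 2.26e-13). Lyz2 has a near-identical neighbour, Lyz1, so the split of reads between these copies is uncertain. Ctss (chromosome 3, 95526786 to 95556403, plus strand) encodes cathepsin S. It had 16.6 and 20.3 CPM in controls, 8.30 and 9.80 in HER2CA day 15, 68.7 and 65.6 in the 4OH-TAM-labelled libraries and 8.09 and 6.68 in gliomaspheres. It rose 7.38-fold between the day 15 groups (log2 fold change 2.88, SE 0.118, adjusted p = 1.28e-11).

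Compared with controls, HER2CA day 15 had lower levels of 7 transcripts and higher levels of none. Cx3cr1 fell 2.39-fold, Csf1r 2.18-fold, Ctss 2.02-fold and Lyz2 1.52-fold (edgeR adjusted p of 1.91e-05 or less). P2ry12 fell by 1.37 (SE 0.479, adjusted p = 0.0173), C1qa by 0.41 (SE 0.149, adjusted p = 0.0206) and C1qc by 0.32 (SE 0.137, adjusted p = 0.0442) on the log2 scale. C1qb (log2 fold change −0.18, adjusted p = 0.162), Trem2 (−0.36, adjusted p = 0.135) and Tyrobp (−0.24, adjusted p = 0.23) did not pass. With upper-quartile factors C1qb (−0.34, edgeR adjusted p = 0.0144) and Trem2 (−0.52, adjusted p = 0.0364) were called as well. The median of the 10 was −0.51, beside −0.02 over all genes, of which 38.4% were called lower and 37.3% higher. The smaller falls depended on single libraries. Without control B the count of lower transcripts was 4, with C1qa (adjusted p = 0.138), C1qc (0.318) and P2ry12 (0.0859) no longer called by edgeR. Without HER2CA day 15 A it was also 4, and without HER2CA day 15 B Trem2 was called (−0.74, adjusted p = 0.0202) while C1qc and P2ry12 were not. C1qc was also lost without either library labelled 4OH-TAM, in DESeq2 and with a replicate block, and C1qa, C1qc and Lyz2 with no scaling factors (adjusted p = 0.222, 0.337 and 0.0577).

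Compared with controls, the 4OH-TAM-labelled libraries had higher levels of 9 transcripts. Lyz2 rose 11.7-fold, C1qb 5.90-fold, Tyrobp 5.71-fold, C1qc 5.58-fold, C1qa 5.07-fold and Trem2 4.58-fold. Ctss rose 3.65-fold, P2ry12 3.56-fold and Csf1r 2.43-fold, with edgeR adjusted p of 8.88e-05 or less for all 9. Cx3cr1 did not pass (log2 fold change −0.07, SE 0.151, adjusted p = 0.713). The median was 2.27, beside 0.00 over all genes, of which 31.0% were called higher and 28.2% lower.

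Compared with controls, gliomaspheres had more of 1 transcript and less of 5, and 4 did not pass. P2ry12 rose 5.65-fold (log2 fold change 2.5, SE 0.29, edgeR adjusted p = 2.54e-06). Trem2 fell 2.46-fold, Ctss 2.42-fold, Tyrobp 1.72-fold, Csf1r 1.52-fold and Cx3cr1 1.49-fold (adjusted p of 0.00921 or less). Lyz2 and the 3 C1q chains did not pass, at −0.11 to −0.19 on the log2 scale (adjusted p from 0.0899 to 0.563). The median was −0.38, beside −0.01 over all genes, of which 32.5% were called higher and 32.0% lower. The Cx3cr1 fall was not called without gliomaspheres A (log2 fold change −0.38, adjusted p = 0.185) or by DESeq2 (−0.54, adjusted p = 0.0571). Lyz2 was called lower without control A (−0.32, adjusted p = 0.0106) and with upper-quartile factors, C1qa without gliomaspheres B (−0.34, adjusted p = 0.0482) and C1qc without gliomaspheres A (−0.50, adjusted p = 0.0279).

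Against HER2CA day 15, gliomaspheres had more P2ry12 (14.6-fold), Cx3cr1 (1.61-fold), Csf1r (1.43-fold) and Lyz2 (1.34-fold), with edgeR adjusted p of 0.00889 or less. Trem2 fell 1.91-fold (adjusted p = 0.00676) and Tyrobp 1.46-fold (adjusted p = 0.0273). Ctss and the C1q chains did not pass, at −0.26 to 0.30 on the log2 scale. The median was 0.22, beside −0.03 over all genes, of which 38.4% were called higher and 40.4% lower. Neither fall held without HER2CA day 15 B (Trem2 −0.56, adjusted p = 0.123; Tyrobp −0.48, adjusted p = 0.117). Without gliomaspheres A Trem2 (adjusted p = 0.0562) and Csf1r (0.0774) missed the edgeR threshold, and without gliomaspheres B Tyrobp did (0.211), as it did with upper-quartile factors and in a fit of only these 2 groups. C1qa was called higher without gliomaspheres A (0.63, adjusted p = 0.0028) and C1qc without gliomaspheres B (0.33, adjusted p = 0.0407). With no scaling factors, which lower the median of all genes in this comparison to −0.30, the rises of Csf1r, Cx3cr1 and Lyz2 were not called (adjusted p of 0.299 or more).

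Against the 4OH-TAM-labelled libraries, gliomaspheres were lower in 9 transcripts. Lyz2 fell 13.3-fold, Trem2 11.3-fold, Tyrobp 9.81-fold and Ctss 8.85-fold, the C1q chains 5.46-fold to 6.52-fold and Csf1r 3.71-fold (edgeR adjusted p of 1.77e-08 or less). Cx3cr1 fell 1.42-fold (adjusted p = 0.0203) and P2ry12 rose 1.58-fold (adjusted p = 0.0198). The median was −2.68, beside 0.02 over all genes, of which 31.3% were called higher and 29.7% lower. Those last calls, of Cx3cr1 and P2ry12, were lost without gliomaspheres A (log2 fold changes −0.31 and 0.33, adjusted p = 0.287 and 0.453), without 4OH-TAM B (adjusted p = 0.142 and 0.0653) and in DESeq2 (adjusted p = 0.0956 and 0.207). The P2ry12 call was also lost without 4OH-TAM A (adjusted p = 0.0758) and with no scaling factors (0.567).

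**Figure D2:**
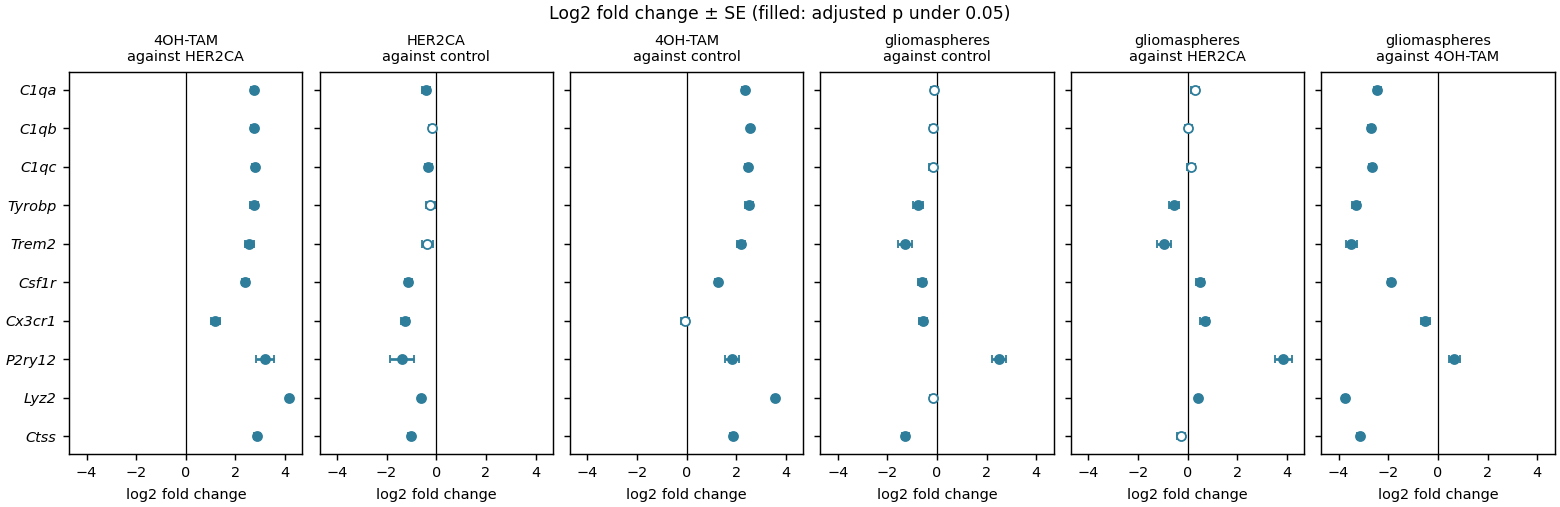
Log2 fold change with its standard error (bars) for each transcript in the 6 comparisons; filled points have an edgeR adjusted p under 0.05. All 10 points are filled and to the right of 0 in the comparison of the day 15 groups, and P2ry12 is on the opposite side of most transcripts in the first and last gliomasphere panels.

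Per length of exon, Lyz2 was the highest of the 10 in every group. In controls it stood at 46.7 RPKM (counts scaled to depth and to exon length, mean of 2 libraries), followed by Ctss (13.6), C1qb (10.1), C1qa (9.77), Tyrobp (6.53) and C1qc (5.59). Csf1r (1.51), Cx3cr1 (1.32), Trem2 (0.621) and P2ry12 (0.204) came last, and only the neighbours C1qb and C1qa overlapped between replicates. In HER2CA day 15 the order was Lyz2 (30.7), C1qb (8.84), C1qa (7.30), Ctss (6.66), Tyrobp (5.52), C1qc (4.46), Csf1r (0.692), Cx3cr1 (0.552), Trem2 (0.471) and P2ry12 (0.077), with overlap of C1qa and Ctss and of Cx3cr1 and Trem2. In the 4OH-TAM-labelled libraries it was Lyz2 (548), C1qb (59.2), C1qa (49.5) and Ctss (49.5), of which the last pair overlapped, then Tyrobp (37.3), C1qc (31.1), Csf1r (3.67), Trem2 (2.84), Cx3cr1 (1.26) and P2ry12 (0.729). In gliomaspheres Lyz2 (40.9) was followed by C1qa (9.54), C1qb (8.95), Ctss (5.44), C1qc (4.7) and Tyrobp (3.49). P2ry12 (1.10), which was last in the other 3 groups, then stood beside Csf1r (0.983) and Cx3cr1 (0.915), and Trem2 (0.250) came last. Replicates of neighbours overlapped among the pair C1qa and C1qb, among Ctss, C1qc and Tyrobp, and among P2ry12, Csf1r and Cx3cr1. These orders depend on the exon length used, the union of all annotated exons: 1088 bases for C1qb, 1931 for C1qc and 4946 for Trem2. C1qb and C1qc had nearly equal counts in controls (262 and 256 in A, 287 and 285 in B) and still stood apart in RPKM.

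Ratios between transcripts of one library do not depend on its scaling factor. Where one kind of cell makes both transcripts, a change in its share with fixed expression would leave their ratio where it was. Ratios were therefore used to ask whether the 10 moved as a block. Which cells made each transcript was not tested, so a moved ratio does not by itself show a change within microglia. Each of 9 transcripts was set over Csf1r, and 5 further ratios were formed within functional pairs. The test was an exact permutation test over all ways to split 8 libraries into 4 pairs (smallest possible p 0.00952), adjusted over the 14 ratios by Benjamini-Hochberg. Of the 14, 9 passed. Over Csf1r 7 of 9 passed, over Tyrobp 6 of 9, and over the mean of the other transcripts 3 of 10 (Csf1r, P2ry12 and Ctss). With 2 libraries against 2 an exact permutation test cannot go below p = 0.333, so differences between 2 groups are given as values with no test.

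Lyz2 set against Csf1r moved most in the 4OH-TAM-labelled libraries. The ratio of counts was 6.99 and 7.08 in controls, 10.3 and 9.84 in HER2CA day 15, 35.3 and 32.9 in the 4OH-TAM-labelled libraries and 9.68 and 9.18 in gliomaspheres (exact permutation adjusted p = 0.0267). Lyz2 over Ctss followed the same order except that gliomaspheres stood above HER2CA day 15, with 3.36 and 3.31, 4.96 and 4.03, 10.6 and 10.9, and 6.93 and 7.66 (adjusted p = 0.0267). Lyz2 made up 44.3% to 51.0% of the counts of the 10 transcripts in controls, HER2CA day 15 and gliomaspheres, and 69.6% and 70.2% in the 4OH-TAM-labelled libraries.

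The C1q chains, Tyrobp and Trem2 were higher relative to Csf1r in both day 15 groups than in controls. C1qb over Csf1r was 1.27 and 1.25 in controls, 2.36 and 2.44 in HER2CA day 15, 3.23 and 2.86 in the 4OH-TAM-labelled libraries and 1.77 and 1.65 in gliomaspheres (exact permutation adjusted p = 0.0267). Tyrobp over Csf1r was 0.537 and 0.471, 0.886 and 0.957, 1.24 and 1.11, and 0.509 and 0.315 in the same order (adjusted p = 0.0381). Trem2 over Csf1r was 0.349 and 0.358, 0.463 and 0.708, 0.716 and 0.616, and 0.220 and 0.225 (adjusted p = 0.0381). Most of this difference was already there in HER2CA day 15: on the log2 scale C1qb over Csf1r was 0.93 above controls there, and 0.34 higher again in the 4OH-TAM-labelled libraries. C1qc over Csf1r also passed (adjusted p = 0.0267), and C1qa over Csf1r did not (adjusted p = 0.0727). All these ratios share Csf1r, so a move of Csf1r shifts them together. Over the mean of the other transcripts, the log2 ratio of Csf1r was 0.26 in controls and −0.22 in HER2CA day 15. It was −0.60 in the 4OH-TAM-labelled libraries (exact permutation adjusted p = 0.0317). With that denominator the C1q chains, Tyrobp and Trem2 did not pass (adjusted p from 0.0571 to 0.648).

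Relative to Csf1r, Cx3cr1 was lowest in the 4OH-TAM-labelled libraries and P2ry12 highest in gliomaspheres. Cx3cr1 over Csf1r was 0.764 and 0.614 in controls, 0.634 and 0.614 in HER2CA day 15, 0.253 and 0.283 in the 4OH-TAM-labelled libraries and 0.639 and 0.820 in gliomaspheres. Only the 4OH-TAM-labelled libraries were low, and controls overlapped HER2CA day 15 and gliomaspheres (exact permutation adjusted p = 0.0727, above the threshold). P2ry12 over Csf1r was 0.060 and 0.063, 0.051 and 0.056, 0.090 and 0.087, and 0.567 and 0.423 (adjusted p = 0.0267), so that gliomaspheres stood 7.96-fold above controls. P2ry12 over Cx3cr1 was 0.079 and 0.102 in controls, 0.081 and 0.091 in HER2CA day 15, 0.355 and 0.308 in the 4OH-TAM-labelled libraries and 0.887 and 0.516 in gliomaspheres (adjusted p = 0.0444). Ctss over Csf1r was highest in the 4OH-TAM-labelled libraries at 3.33 and 3.02, with 2.08 and 2.14 in controls, 2.07 and 2.44 in HER2CA day 15 and 1.40 and 1.20 in gliomaspheres (adjusted p = 0.0444). With other denominators Ctss was highest in controls. Over Tyrobp its mean log2 ratio was 2.07 in controls and 1.43 in the 4OH-TAM-labelled libraries (exact permutation adjusted p = 0.0429). Over the mean of the other transcripts these values were 1.45 and 1.25 (exact permutation adjusted p = 0.0317).

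Ratios within the C1q complex and within the TREM2 receptor pair did not pass the test. C1qc over C1qb lay between 0.825 and 1.03 in all 8 libraries (exact permutation adjusted p = 0.695), C1qa over C1qb between 0.753 and 1.28 (adjusted p = 0.533) and Trem2 over Tyrobp between 0.433 and 0.760 (adjusted p = 0.695). The gliomasphere pair spread widest for C1qc over C1qb, at 1.03 and 0.825. Controls had 0.977 and 0.993, HER2CA day 15 had 0.908 and 0.884 and the 4OH-TAM-labelled libraries 0.933 and 0.931, without overlap. For C1qa over C1qb the gliomaspheres had 0.780 and 1.28. The test therefore does not show that the C1q ratios stayed level. With Tyrobp as denominator in place of Csf1r, the mean log2 ratio of C1qb was 1.32 in controls, 1.38 in HER2CA day 15 and 1.37 in the 4OH-TAM-labelled libraries, and 2.09 in gliomaspheres (adjusted p = 0.139). The same ratio for C1qc was 1.3, 1.22, 1.27 and 1.98 (adjusted p = 0.135). The calls on ratios rested on few libraries. Without control B none of the 14 passed (smallest exact permutation adjusted p 0.0533), 4 passed without control A, HER2CA day 15 A or 4OH-TAM A, 5 without 4OH-TAM B, and 12 without gliomaspheres A.

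**Figure D3:**
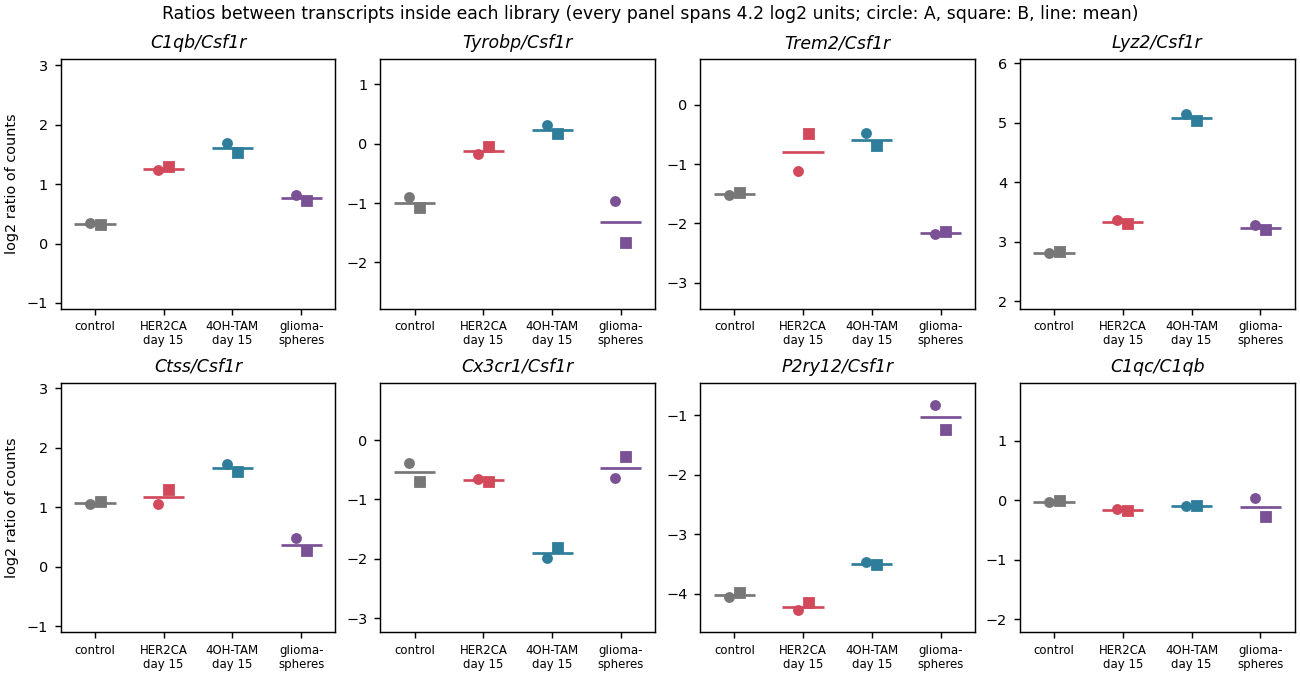
Log2 of the ratio of counts between transcripts inside each library, for 7 transcripts over Csf1r and for C1qc over C1qb (circle: replicate A, square: replicate B, line: mean; every panel spans the same range). C1qc over C1qb is nearly level, Lyz2 over Csf1r is high and Cx3cr1 over Csf1r low in the 4OH-TAM-labelled libraries, and P2ry12 over Csf1r is high in gliomaspheres.

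Other microglia and macrophage genes moved in the same direction between the day 15 groups. Between these groups edgeR called 40.8% of all genes higher and 39.7% lower, the background for this list and each list below. Of 31 listed, 27 were measured, 25 rose and 2 fell in the 4OH-TAM-labelled libraries (edgeR, median log2 fold change 2.42). Examples were the pore-forming protein gene Mpeg1 (13.4 ± 1.19 to 99.0 ± 2.41 CPM, mean ± SD, n = 2), Olfml3, a transcript enriched in microglia (1.74 ± 0.126 to 22.7 ± 4.35), and C3ar1, the receptor of complement fragment C3a (4.12 ± 0.461 to 26.9 ± 1.81). The exceptions were the lysosomal glycoprotein gene Cd68 (−0.54, adjusted p = 2.56e-05) and the transcription factor gene Runx1 (−0.45, adjusted p = 0.000861), named after their values were seen. Cd68 was as high as 124 and 135 CPM in HER2CA day 15, where most of the 10 transcripts were low. In HER2CA day 15 against controls 1 of the 27 rose and 12 fell, and in gliomaspheres against controls 2 rose and 12 fell. Over all genes 38.4% were called lower and 37.3% higher in the first of these comparisons, and 32.0% and 32.5% in the second. Most of the 27 leaned to lower levels, with a negative log2 fold change in 21 and in 24. Their medians were −0.49 and −0.61, beside −0.02 and −0.01 over all genes.

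Genes of the signalling chain below TYROBP and CSF1R also rose. All 10 measured of 11 listed rose between the day 15 groups (median log2 fold change 2.55), where 40.8% of all genes were called higher. Among the 10 were the kinase genes Syk (2.62, SE 0.178, edgeR adjusted p = 2.98e-09) and Lyn (2.83, SE 0.104, adjusted p = 4.35e-12). Vav1, a guanine nucleotide exchange factor, rose by 2.67 (SE 0.194) and the lipid phosphatase gene Inpp5d by 2.46 (SE 0.185) on the log2 scale. Lyn was higher still in gliomaspheres, at 78.6 and 75.6 CPM against 49.98 and 53.0 in the 4OH-TAM-labelled libraries. In HER2CA day 15 against controls Lyn was the 1 gene of the 10 to fall (log2 fold change −1.24, adjusted p = 8.95e-08) and none rose.

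Of the 6 genes for ligands and niche signals, 5 rose between the day 15 groups and 1 fell (median 0.82). Over all genes 40.8% were called higher there and 39.7% lower. Il34, a CSF1R ligand, was measured at 0.229 and 0.241 CPM in HER2CA day 15 and at 5.21 and 4.51 in the 4OH-TAM-labelled libraries (log2 fold change 4.33, SE 0.325, edgeR adjusted p = 9.46e-09). Controls had 0.960 and 1.40 CPM of Il34 and gliomaspheres 1.59 and 0.809. Csf1, the other ligand, was more abundant and moved less, from 112 and 126 to 151 and 150 CPM (log2 fold change 0.34, SE 0.0833, adjusted p = 0.00162). Cx3cl1, the ligand of CX3CR1, rose from 92.9 and 94.8 to 158 and 156 CPM (0.74, SE 0.0688, adjusted p = 9.96e-08) and was highest in gliomaspheres at 199 and 218. Cd200, a restraining signal for microglia, rose by 3.43 (SE 0.16, adjusted p = 4.74e-11). Cd47, the signal that spares cells from phagocytosis, fell by 0.83 (SE 0.0858, adjusted p = 3.38e-07).

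Activation and phagosome genes rose less on the whole. Of 17 measured, 16 rose and 1 fell between the day 15 groups (edgeR, median 1.25). Gpnmb went from 37.2 and 42.6 to 451 and 473 CPM, the osteopontin gene Spp1 from 40.2 and 40.5 to 275 and 240.2, and the growth factor gene Igf1 from 5.23 and 4.55 to 40.4 and 36.2. The cathepsin L gene Ctsl fell from 1355 and 1284 to 409 and 417 CPM (log2 fold change −1.68, SE 0.0763, adjusted p = 3.79e-11), while Ctss rose. Spp1 did not pass between gliomaspheres and the 4OH-TAM-labelled libraries (−0.17, adjusted p = 0.0666), at 237 and 221 CPM in the spheres. Of 7 measured inflammatory genes 6 rose and 1 fell between the day 15 groups (median 2.54). Ccl2, a monocyte chemokine, rose by 2.54 (SE 0.302), Tlr2 by 1.63 (SE 0.174) and Cxcl10 by 1.51 (SE 0.172). The prostaglandin synthase gene Ptgs2 fell from 87.6 and 86.9 to 6.01 and 7.15 CPM, with 2.07 and 1.52 in controls. Il1a, at 1.80 and 1.53 CPM in the 4OH-TAM-labelled libraries, had 0 counts in both gliomasphere libraries.

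Of 11 listed genes of border macrophages and monocytes 4 were measured. All 4 rose between the day 15 groups (edgeR, median 2.62), where 40.8% of all genes were called higher. The summed level of these 4 was 8.75 and 10.5 CPM in controls, 6.10 and 6.07 in HER2CA day 15, 24.1 and 24.7 in the 4OH-TAM-labelled libraries and 4.74 and 4.05 in gliomaspheres. Mrc1, the mannose receptor, had 0.367 and 0.586 CPM in HER2CA day 15 and 4.52 and 3.52 in the 4OH-TAM-labelled libraries. Ms4a7 rose by 2.22 (SE 0.146), Clec12a by 3.01 (SE 0.345) and Stab1 by 0.52 (SE 0.226, adjusted p = 0.0449) on the log2 scale. Of the 5 MHC class II genes 2 were measured. H2-Ab1 had 2.5 and 2.68 CPM in controls, 0.137 and 0.241 in HER2CA day 15, 1.34 and 0.995 in the 4OH-TAM-labelled libraries and 2.98 and 2.13 in gliomaspheres. It rose between the day 15 groups (2.54, SE 0.417, adjusted p = 4.76e-05) and stayed under controls (−1.14, SE 0.245, adjusted p = 0.001). Its activator gene Ciita did not pass (0.74, SE 0.56, adjusted p = 0.237).

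Markers of other cell types moved with the microglial transcripts. Between the day 15 groups all 11 astrocyte markers rose (edgeR, median log2 fold change 3.19), as did all 7 measured oligodendrocyte lineage markers (3.54), 8 of 9 measured fibroblast and mural markers (2.94) and both measured endothelial markers (3.42). Aqp4, the astrocyte water channel, rose by 3.62 (SE 0.0927), Olig1 by 3.81 (SE 0.125), the pericyte receptor gene Pdgfrb by 3.45 (SE 0.161) and the VEGF receptor gene Flt1 by 3.08 (SE 0.14). The smooth muscle actin gene Acta2 fell by 2.02 (SE 0.104). Astrocyte markers summed to 6222 and 7281 CPM in controls, 2831 and 2911 in HER2CA day 15, 12854 and 13384 in the 4OH-TAM-labelled libraries and 11685 and 12208 in gliomaspheres. Endothelial markers summed to 12.4 and 11.9, 3.16 and 3.00, 28.7 and 25.6, and 38.4 and 32.0 CPM in the same order. Oligodendrocyte markers summed to 466 and 503, 118 and 109, 842 and 864, and 3245 and 2932 CPM. Fibroblast and mural markers summed to 371 to 447 CPM in the first 3 groups and to 72.5 and 80.2 CPM in gliomaspheres. The 27 other microglia and macrophage genes summed to 329 and 338, 323 and 341, 650.0 and 607, and 215 and 224 CPM. Cd68 weighed heavily in these sums, with means of 88.5, 129, 88.8 and 11.6 CPM in that order. The median log2 fold change of the 27 against controls was −0.49 in HER2CA day 15 and −0.61 in gliomaspheres. In gliomaspheres the astrocyte, oligodendrocyte and endothelial sums were above those of controls, and the sums of the 27 genes and of the fibroblast and mural markers were below them. The part of any of these cells in the changes of the 10 transcripts was not tested.

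**Figure D4:**
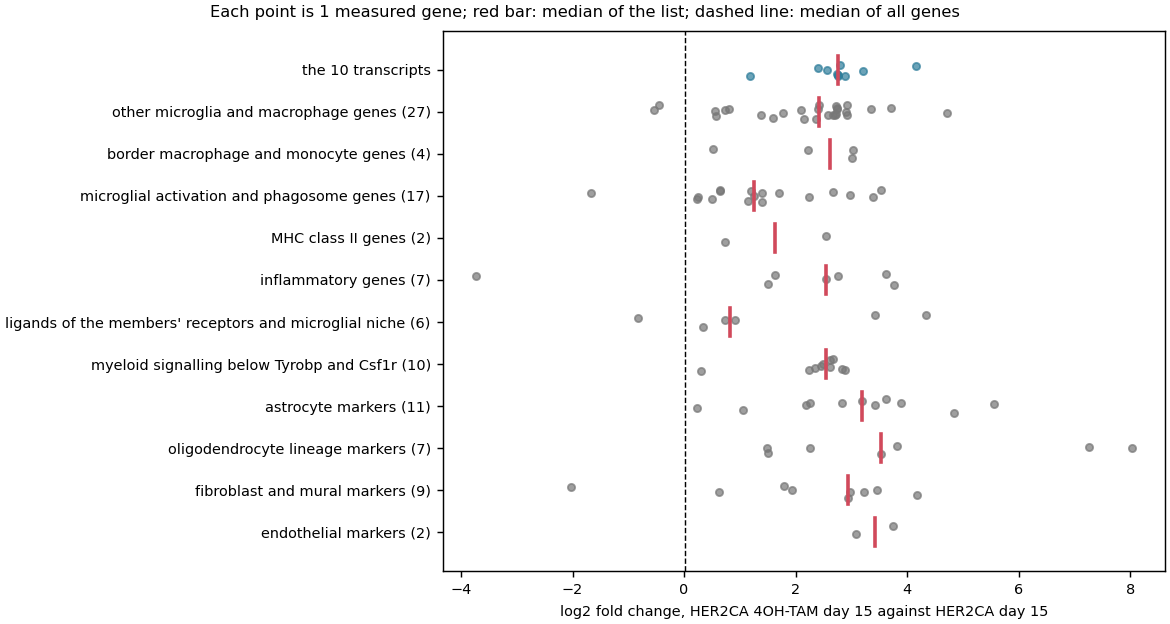
Log2 fold change between the 4OH-TAM-labelled libraries and HER2CA day 15 for the 10 transcripts and every measured gene of the other lists (number measured in brackets; red bar: median of the list; dashed line: median of all genes). Medians of all lists lie to the right of the dashed line, those of the astrocyte, oligodendrocyte, fibroblast and mural, and endothelial markers further than that of the 10 transcripts.

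The genes whose pattern was most like the mean of the 10 over the 8 libraries were found by the root mean square difference of centred log2 CPM among 11871 genes that reached 5 CPM in their highest group. They were Inpp5d (0.139), the myosin gene Myo1f (0.143), the Fc receptor chain gene Fcer1g (0.157), Vav1 (0.177) and Laptm5 (0.178), followed by Parp14 (0.19), the NADPH oxidase subunit gene Ncf1 (0.216), Fam167a (0.225), C3ar1 (0.236) and Fcgr3 (0.236). Pearson's r with that mean was 0.996 for Inpp5d over the 8 libraries, which share their groups and depth. Measured the same way, C1qc (0.208) and C1qa (0.213) were closest to the mean of which they are part, and Cx3cr1 (0.837) and P2ry12 (1.23) furthest from it.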

How the data were processed

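PolyA RNA was sequenced with a stranded TruSeq mRNA kit in 8 libraries, per the labels' protocols. The authors deposited whole-number read counts per gene symbol, not normalised, which their differing library totals show. Per the submitters' processing notes, the tools were STAR 2.5.3a, FastQC and featureCounts and the builds GRCm38 and mm10, listed without their roles. No source used here gives the annotation or strand setting of the counting. Depth was 15517708 to 28231426 counts per library, and no pair of replicates agreed within sampling noise.

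The quasi-likelihood test of edgeR 4.0.16 (R 4.3.3) was fitted with 1 mean per group over 8 libraries (4 residual degrees of freedom), with TMM factors and filterByExpr, which kept all 13607 genes. P-values were adjusted by Benjamini-Hochberg over the whole table, with a threshold of 0.05. The SE of a log2 fold change is its size over the square root of the F statistic. CPM use TMM-scaled library sizes, and RPKM divide them by union exon lengths of GENCODE M21 (GRCm38), the source of gene positions. Ratios were computed from counts plus 0.5, as log2 values for testing and turned back from log2 where the text gives ratios of counts. Promoters come from RefSeq (GRCm38.p6). The replicate letter was not used to pair libraries, since deviations of same-lettered libraries correlated at −0.0211 to 0.0939, never above 0.1.

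The 10 transcripts and the 14 other lists (147 genes, 102 measured) were chosen with earlier results of these data known. Genes named beside the 10 are up to 4 per list with the lowest p between the day 15 groups, any listed gene at 0 counts in a group, and the 10 genes most like the mean pattern; Spi1, Cd68, Runx1 and Csf1 were added after their values were seen, and Yap1, Wwtr1, Hmgxb3 and Rn45s serve as checks. Alternatives were relative log expression, upper-quartile and no scaling factors, other filters, DESeq2 1.42.0, removal of Rn45s and Lars2, a fit of only the 2 groups compared, a replicate block, each library left out in turn (the lone library is then assumed to vary like the other groups), and other denominators for ratios. The fit was checked on simulated counts first.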

Additional observations from a re-analysis of the deposited data

How the results depend on the processing

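All 10 transcripts stayed higher in the 4OH-TAM-labelled libraries than in HER2CA day 15, and 9 stayed higher than in controls, in every alternative that tested them. The filter at 5 CPM leaves out P2ry12. Dropping the low-count filter only repeats the main fit, since that filter kept all 13607 genes. Fits that left out a library outside a comparison kept both of its groups whole. Both kinds are counted in the totals that follow. Over all 6 comparisons, 1014 values of the 10 transcripts were recomputed: 1008 kept their sign, 969 their side of the threshold, 35 lost a call and 10 gained one. Transcripts lower in HER2CA day 15 than in controls numbered 7, with 9 under upper-quartile factors, 4 with no scaling factors and 4 to 7 with 1 library left out. In gliomaspheres against controls the 1 higher transcript became 0 with the 5 CPM filter, which removed it. In gliomaspheres against HER2CA day 15 the 4 higher became 1 with no scaling factors, and the 2 lower became 1 with upper-quartile factors and 1 in the fit of only these 2 groups, and ranged from 0 to 2 with a library left out. Against the 4OH-TAM-labelled libraries the 1 higher transcript became 0 with no scaling factors, the 5 CPM filter or DESeq2, and ranged from 0 to 1 with a library left out. Ratios past the threshold ranged from 0 to 12 with a library left out, and ratios to 1 denominator numbered 3 with the mean of the others as denominator. Apart from that filter the cause was not tested. With the replicate block, C1qc in HER2CA day 15 against controls had a log2 fold change of −0.32 and an edgeR adjusted p of 0.0529, so 6 transcripts were lower; no other call changed. Upper-quartile factors moved the median of all genes between the day 15 groups to 0.22 (6569 higher and 4109 lower calls, against 5547 and 5400), and no scaling factors moved it to 0.13 (4338 and 2037). In gliomaspheres against controls no scaling factors moved it to −0.33 (1386 and 3260, against 4427 and 4353). In HER2CA day 15 against controls, calls over all genes numbered 5082 higher and 5226 lower. Upper-quartile factors gave 4207 higher and 6091 lower there, and no scaling factors 2304 and 3586. Depth limits P2ry12 most, with 4 to 78 counts per library.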
